A study of Mus musculus with 18 samples.

Results

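Enamel is laid down by ameloblasts, epithelial cells of the tooth that secrete a protein matrix and then degrade it as the mineral hardens. The data on 10 genes of that process and its relatives are described here, with 10 of 10 found among 32532 gene symbols of the E17 table and 10 of 10 among 19450 of the P5 table. They were chosen by symbol: the secretory matrix genes Amelx, Ambn and Enam, the proteases Mmp20 and Klk4, the phosphatase gene Acp4, the maturation genes Amtn, Odam and Odaph, and Csn3, which encodes kappa-casein. Each value is the sum over the transcripts listed under the symbol, 25 transcripts at E17 and 15 at P5. Values are reads scaled to transcript length and to the library's mapped reads (RPKM), a unit read from the values themselves, so levels of different genes can be compared per length.

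The libraries came from mouse molar epithelium that had been separated from the mesenchyme of the tooth germ with dispase. Wild type (WT) mice were compared with double knockout mice, labelled DKO (Hmgn1-/-; Hmgn2-/-), which lack both HMGN1 and HMGN2, nucleosome-binding proteins of chromatin. Embryonic day 17 (E17) and postnatal day 5 (P5) each had 3 WT and 3 DKO libraries, 12 of the series' 18. The labels give no strain and do not say how the alleles were made, whether both genotypes shared litters, or whether tissue was pooled. They also do not state that each library is another animal, so a p-value here reflects only how these libraries vary, which could be technical variation. The other 6 libraries, from P0, were not analysed here.

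Amelogenin, the product of Amelx, makes up most of the enamel matrix, with ameloblastin and enamelin beside it. MMP20 processes these proteins while they are secreted, and KLK4 removes them during maturation, when amelotin, ODAM and ODAPH are made at the enamel surface. Most of these structural proteins, the caseins and several salivary and bone matrix proteins belong to the secretory calcium-binding phosphoprotein family, whose genes lie in clusters that arose by duplication.

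That kinship shows in the genome positions (mm10). Odam (5:87885029-87894174), Csn3 (5:87925579-87932665), Amtn (5:88376108-88385916), Ambn (5:88455991-88468531) and Enam (5:88487975-88506049) all lie on the plus strand of chromosome 5 within 621 kb. Odaph (5:91987475-91995320) lies 3481 kb further along. Amelx (X:169176114-169187200) lies on the minus strand within the span of Arhgap6, whose exons it does not overlap. Mmp20 (9:7628231-7674979), Klk4 (7:43881160-43885804) and Acp4 (7:44252148-44257378) lie elsewhere. Exons of Acp4 overlap those of a gene on the opposite strand, 2410002F23Rik, and the sources used here do not say whether counting used strand, so reads of that stretch cannot be assigned with certainty.

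Of the 10 genes, 9 had a promoter in the RefSeq table (GRCm38.p6). The 100 bases before the start of transcription are shown for 5 of them, and for the bone matrix gene Spp1 (osteopontin, of the same family), because they share letters that the other 4 lack. The capitals mark TGATTGG, which holds the reverse of the CCAAT box (ATTGG), and the TAAAT that follows it, both on the gene's strand.
Amelx, chrX:169187210-169187309, minus strand: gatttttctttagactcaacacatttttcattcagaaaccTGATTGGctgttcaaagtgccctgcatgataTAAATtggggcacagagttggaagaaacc
Ambn, chr5:88455891-88455990, plus strand: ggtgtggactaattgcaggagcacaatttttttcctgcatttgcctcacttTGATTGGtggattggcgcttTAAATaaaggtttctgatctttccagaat
Enam, chr5:88487875-88487974, plus strand: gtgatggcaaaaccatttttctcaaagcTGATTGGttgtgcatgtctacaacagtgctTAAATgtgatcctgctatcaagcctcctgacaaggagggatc
Amtn, chr5:88376008-88376107, plus strand: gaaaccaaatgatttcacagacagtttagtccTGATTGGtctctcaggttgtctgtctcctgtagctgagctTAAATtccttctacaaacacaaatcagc
Odam, chr5:87884910-87885009, plus strand: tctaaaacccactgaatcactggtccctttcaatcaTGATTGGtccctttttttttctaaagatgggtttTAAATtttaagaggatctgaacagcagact
Spp1, chr5:104435011-104435110, plus strand: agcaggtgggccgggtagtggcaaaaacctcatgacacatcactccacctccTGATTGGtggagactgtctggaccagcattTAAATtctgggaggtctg

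In Amelx, TGATTGG began 60 bases before the start and TAAAT 29 bases before it. In Ambn they began at 49 and 29 bases, in Enam at 72 and 42, in Amtn at 68 and 28, and in Odam at 64 and 30. The gap between them was 13 to 33 bases, as a range over the 5 genes. TGATTGG occurred in the last 100 bases of 2.33% of 32851 promoters, and TAAAT in 7.28%. TGATTGG followed after 10 to 40 bases by TAAAT occurred in 14 promoters of 14 genes, 0.0426% of all. Those 14 were the 5 genes above, Spp1, Runx1, which encodes a transcription factor of epithelial and bone cells, and Ddc, Fabp7, Fthl17-ps1, Med21, Slc38a4, Srsf3 and Tmem218. The letters were picked after the sequences had been read, so the share describes these promoters and tests nothing. Odaph, Mmp20, Klk4 and Acp4 held neither in that window.

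Among other letters searched in the 250 bases before the start on both strands, CCAAT (or ATTGG) occurred in the same 5 genes and in 33.9% of all promoters, TATAAA in Amelx, Enam and Mmp20 and in 12.4%, and TGTGGT in Odam and Odaph and in 14.1%. TATAAA on the gene's strand at 40 to 20 bases before the start, the usual place of a TATA box, occurred in Amelx alone of the 9, and in 1.91% of all promoters.

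Facts of the whole tables bear on each comparison. Libraries held 65953495 to 99967427 alignments at E17 and 39209676 to 72660832 at P5, and 1 read per kilobase was worth 0.0241 to 0.0358 RPKM at E17 and 0.0323 to 0.0595 at P5, as recovered from the steps between low values. The median log2 fold change of all genes, DKO over WT, was 0.25 at E17 and -0.25 at P5, and -0.00 and -0.06 after scaling each library to the same upper quartile. As deposited, 56.3% of genes tested at E17 passed an adjusted p of 0.05 upward and 3.3% downward, and after scaling 6.61% and 8.03%. At P5 these shares were 7.36% and 58.2% as deposited and 19.4% and 30.8% after scaling. For that reason "rose" and "fell" are used only where limma gave an adjusted p (Benjamini-Hochberg over all genes tested) under 0.05 in the same direction both as deposited and after that scaling. Hmgn2 averaged 339 RPKM in WT and 0.922 in the libraries labelled DKO at E17, and 172 and 8.29 at P5. Hmgn1 averaged 128 and 90.6 at E17 and 185 and 71.5 at P5. The sources used here do not give the deleted part of Hmgn1, so RNA over the whole gene is an incomplete check of that label.

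At P5, 8 of the 10 genes rose in DKO libraries and 0 fell by the limma rule (0 lower at an unadjusted p under 0.05 in either scaling), where 7.35% of 11423 genes tested rose and 30.8% fell. The WT and DKO values of those 8 did not overlap, and DKO was higher without overlap at 8.66% of all genes and WT at 61.8%. Klk4 and Odam were not called. One of the 8, Odaph, entered the test only because its 3 DKO libraries reached 1 RPKM. Of the other 9 genes, which reached it in both genotypes, 7 rose and 0 fell, and their median log2 fold change was 0.79 as deposited and 1.01 scaled, beside -0.25 and -0.06 over all genes. In bulk tissue, more cells of a type and more RNA per cell cannot be told apart.

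**Figure D1:**
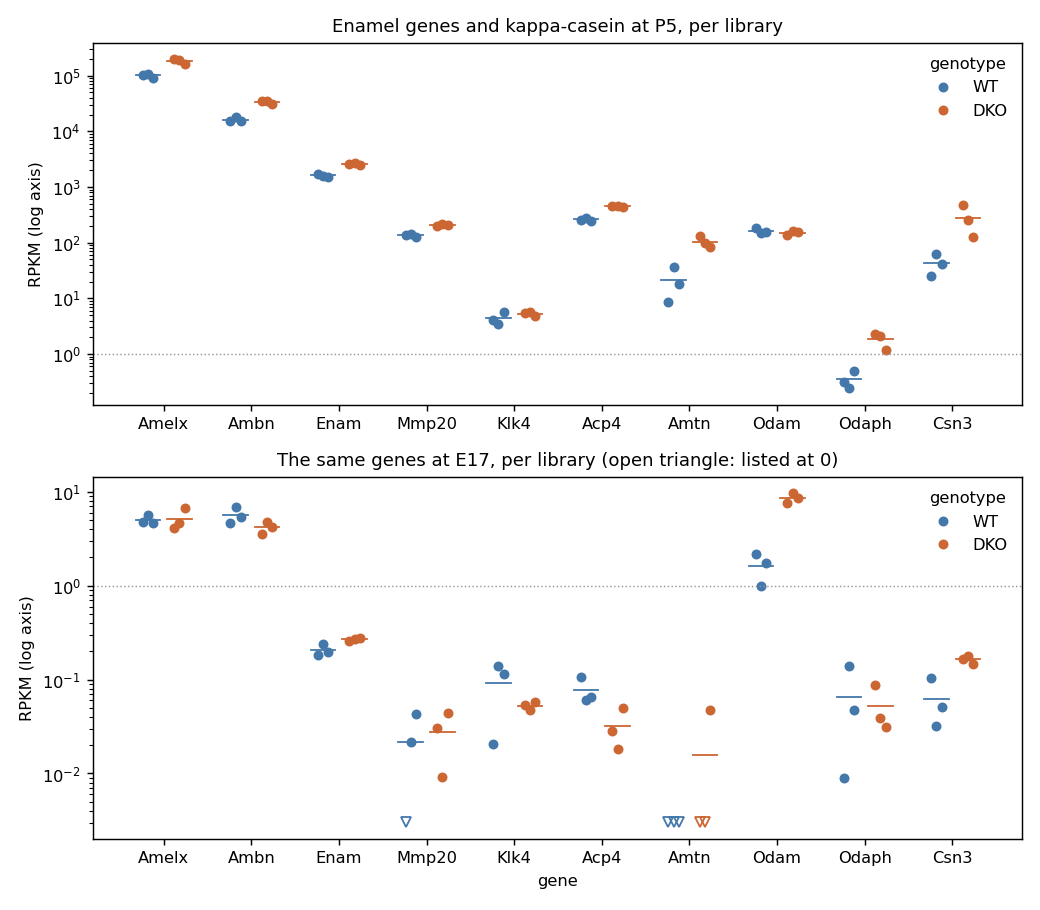
RPKM of each gene in each library on a log axis, P5 above and E17 below, with WT in blue, DKO in orange, points for libraries, short lines for group means and a dotted line at 1 RPKM. At P5 the DKO points lie above all WT points for 8 genes, while at E17 only Amelx, Ambn and Odam lie near or above 1 RPKM and Odam alone of these is separated.

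Markers of other cells differed between the P5 groups as well, with sums given as deposited. The summed RPKM of 8 odontoblast and bone markers was 1426 to 1786 in WT and 544 to 770.1 in DKO, and all 7 of them that were tested fell. The sum of 10 mesenchyme markers was 1252 to 1400 in WT and 634 to 832 in DKO, and 5 of 10 fell, beside the 30.8% of all genes. The sum of 9 dental epithelium markers was 4916 to 6074 in WT and 4617 to 4828 in DKO, and 0 of 9 rose by the limma rule and 2 fell, with 0 higher as deposited and 2 higher after scaling at an unadjusted p under 0.05. The sum of 7 muscle markers was 13.3 in DKO replicate 3 and 0.780 to 1.33 in the other 5 libraries, which sets that library apart. Without it, the log2 differences of the 8 genes that rose stayed past the limma threshold in both scalings. The part of the other cells in these changes was not tested.

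Amelx was the most abundant gene of every P5 library. It measured 103854, 108356 and 90465 RPKM in the WT libraries and 197948, 190145 and 162338 in the DKO libraries. Every DKO library exceeded every WT library, and the means were 100892 ± 9306 (SD, n = 3) and 183477 ± 18718 (SD, n = 3), a 1.82-fold difference. On the log2(RPKM + 1) scale the difference was 0.86 ± 0.11 (SE), with a limma adjusted p of 8.68e-05, and 1.09 after scaling. With no filter on low values the same difference had an SE of 0.86 and a limma adjusted p of 0.478, which would end the call.

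Ambn, which encodes ameloblastin, an adhesive matrix protein, ranked second in all 6 libraries. Its WT libraries measured 15158, 18090 and 15043 RPKM and its DKO libraries 34521, 34643 and 31387. The DKO libraries lay close together at 2.08 times the WT mean, a log2 difference of 1.06 ± 0.09 (SE; limma adjusted p = 1.11e-05) and 1.29 scaled. Enam encodes the largest and scarcest of the secretory matrix proteins, and measured 1743, 1593 and 1525 RPKM in WT and 2562, 2680 and 2483 in DKO. It rose 1.59-fold, again without overlap, by 0.67 ± 0.06 on the log2 scale (SE; limma adjusted p = 2.15e-05) and by 0.89 scaled.

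The enzymes of the secretory stage moved the same way. Mmp20, whose product cleaves amelogenin and ameloblastin as they are secreted, measured 139.5, 141.6 and 128.7 RPKM in WT and 201.3, 213.7 and 203.9 in DKO. That was 1.51-fold, a log2 difference of 0.59 ± 0.06 (SE; limma adjusted p = 1.98e-05) and 0.82 scaled. Acp4, an acid phosphatase of secretory ameloblasts whose loss causes thin enamel, measured 260.6, 275.8 and 248.2 RPKM in WT and 458.3, 456.8 and 438.8 in DKO. It rose 1.73-fold, by 0.79 ± 0.06 on the log2 scale (SE; limma adjusted p = 5.03e-06) and by 1.01 scaled. In both genes the spread within a genotype was small beside the gap between genotypes.

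Klk4, the protease of the maturation stage, stayed at single digits. Its WT libraries measured 4.09, 3.44 and 5.64 RPKM and its DKO libraries 5.41, 5.66 and 4.73. The groups overlapped through the third WT library. The log2 difference was 0.23 ± 0.13 (SE; 95% interval -0.05 to 0.52; limma adjusted p = 0.131) as deposited and 0.42 (adjusted p = 0.0357) scaled, so it was not called. Without WT replicate 3 it was 0.40 (limma adjusted p = 0.00887) as deposited and 0.60 (0.00249) scaled, which would pass both.

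Amtn and Csn3 had the largest log2 differences of the 10 genes at P5, and the largest standard errors. Amtn encodes amelotin, a protein of the basal lamina between maturation ameloblasts and enamel. It measured 8.64, 36.3 and 18.5 RPKM in WT and 130.2, 97.9 and 84.8 in DKO. All DKO libraries exceeded the highest WT library, although the WT values themselves differed severalfold. The means differed 4.93-fold, and the log2 difference was 2.44 ± 0.37 (SE; limma adjusted p = 0.000249), or 2.65 scaled. Without WT replicate 2, the highest WT library, the means differed 7.69-fold, and over fits leaving out 1 library the log2 difference as deposited was 1.94 to 2.92.

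Csn3, the micelle-stabilising casein of milk, measured 25.7, 62.9 and 41.6 RPKM in WT and 471.7, 251.1 and 126.3 in DKO. The lowest DKO library was above the highest WT library, and the means were 43.4 ± 18.7 (SD, n = 3) and 283 ± 175 (SD, n = 3). Relative to their mean, the 3 DKO libraries spread more widely for Csn3 than for any other of the 10 genes. The 6.52-fold difference in means corresponded to 2.57 ± 0.41 on the log2 scale (SE; limma adjusted p = 0.000337), or 2.79 scaled. The casein genes Csn1s1 and Csn2 were not matched in the P5 table and have no value here. Lalba, a milk protein gene and the 1 mammary marker of 5 that was matched, was under 1 RPKM in every library. Of 10 casein and salivary neighbours of the family, 2 were found at P5 and none passed the filter. All 4 salivary markers found at P5 were under 1 RPKM in every library.

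Odaph, which encodes a small phosphorylated protein needed for enamel maturation, was near the floor in WT at 0.318, 0.244 and 0.492 RPKM and measured 2.34, 2.11 and 1.19 in DKO. The log2 difference was 1.07 ± 0.15 (SE; limma adjusted p = 0.000142) and 1.17 scaled. Since only DKO libraries carried it past the filter, a difference in that direction was built into its being tested.

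Odam encodes a protein of maturation ameloblasts and of the junctional epithelium around the tooth, and like Klk4 was not called at P5. It measured 181.2, 149.5 and 158.7 RPKM in WT and 137.9, 160.2 and 153.04 in DKO, with partial overlap: the highest library was WT and the lowest DKO. The log2 difference was -0.12 ± 0.08 (SE; 95% interval -0.29 to 0.06; limma adjusted p = 0.217) as deposited and 0.11 (interval -0.05 to 0.26; adjusted p = 0.218) after scaling, so its sign depended on the scaling. Both intervals lie below every estimate among the 8 genes that rose.

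**Figure D2:**
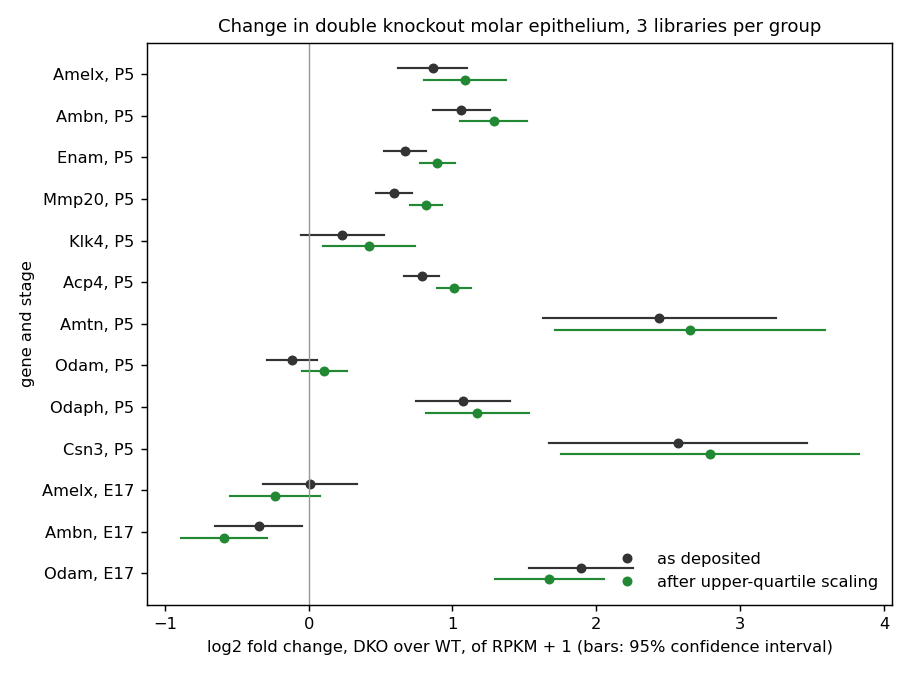
Log2 fold change of RPKM + 1, DKO over WT, for the 10 genes at P5 and the 3 tested at E17, as deposited in black and after upper-quartile scaling in green, with bars for 95% confidence intervals. Amtn and Csn3 at P5 and Odam at E17 lie farthest to the right, and Odam at P5 and Amelx at E17 cross 0 under both scalings.

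The order of the 4 highest genes by their means was the same in both genotypes. In WT at P5 it ran Amelx, Ambn, Enam, Acp4, Odam, Mmp20, Csn3, Amtn, Klk4 and Odaph. Neighbours in that order did not overlap except Csn3 and Amtn. Odam was above Mmp20 in WT without overlap, and Mmp20 (201.3 to 213.7 RPKM) was above Odam (137.9 to 160.2) in DKO without overlap. Csn3 moved above both by its DKO mean, but its range of 126.3 to 471.7 RPKM took in all libraries of Acp4, Mmp20 and Odam, so its place was not resolved.

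Because Amelx and Ambn are so abundant, the 10 genes took a large part of each P5 library. They held 27.0, 28.8 and 25.8% of the summed RPKM in WT and 46.4, 45.6 and 41.1% in DKO, with Amelx alone at 23.0 ± 1.29% (SD, n = 3) and 36.9 ± 2.65% (SD, n = 3). All DKO shares exceeded all WT shares (exact permutation test, two-sided, p = 0.1, the smallest that 3 against 3 can give). In mapped reads, where short transcripts weigh less, Amelx held 7.01 to 8.37% in WT and 12.6 to 15.3% in DKO. Over all genes except the 10, the summed RPKM was lower in DKO, 272383 to 282432 against 310062 to 327520. All genes of a library share that total with these 10, and the share of Odam was 0.0373% in WT and 0.0303% in DKO of the whole total but 0.0512% and 0.0545% of the total without the 10.

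**Figure D3:**
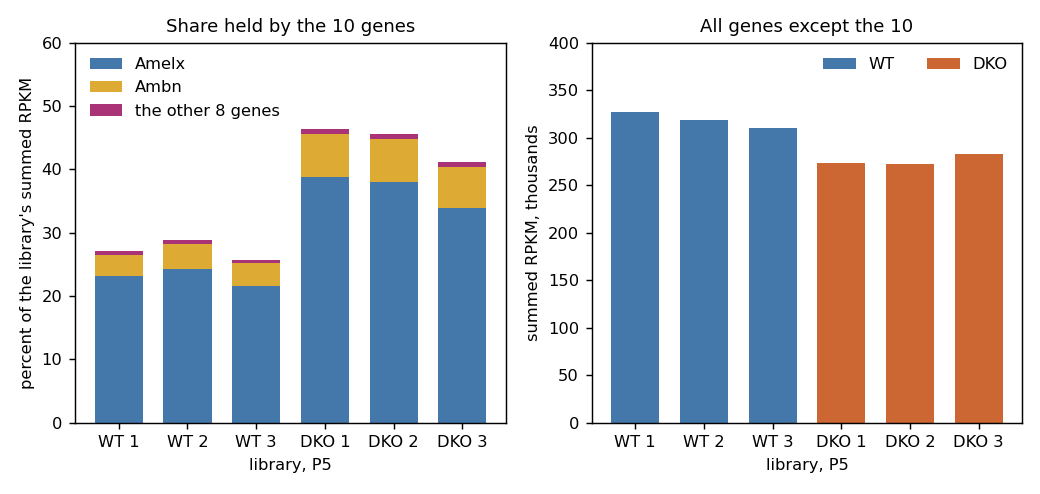
Left, percent of the summed RPKM of each P5 library held by Amelx, Ambn and the other 8 genes, stacked; right, the summed RPKM of all genes except the 10. The WT bars on the left reach 25.8 to 28.8% and the DKO bars 41.1 to 46.4%, while on the right all 3 DKO bars are lower than the WT bars.

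Ratios within a library do not depend on its scaling, and 15 were compared at P5. Amelx exceeded Ambn 5.99 to 6.85-fold in WT and 5.17 to 5.73-fold in DKO. Ambn exceeded Enam 8.70 to 11.4-fold in WT and 12.6 to 13.5-fold in DKO. Amelx exceeded Mmp20 703 to 765-fold in WT and 796 to 983-fold in DKO. None of these 3 ratios overlapped between genotypes, each with an exact permutation p of 0.1 (0.15 adjusted over the 15). The ratio of Amelx to Acp4 was 385 ± 18.2 in WT and 406 ± 32.2 in DKO (SD, n = 3), and that of Enam to Mmp20 was 11.9 ± 0.623 and 12.5 ± 0.283. Both overlapped, with exact permutation p of 0.4 and 0.2.

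Among the maturation genes, Odam exceeded Amtn 4.12 to 21.0-fold in WT but only 1.06 to 1.81-fold in DKO, and it exceeded Csn3 2.38 to 7.04-fold in WT but was 0.292 to 1.21 times Csn3 in DKO. Neither pair of ranges overlapped (exact permutation p = 0.1, 0.15 adjusted). Csn3 to Amtn, which rose by similar factors, was 2.32 ± 0.626 in WT and 2.56 ± 1.07 in DKO (SD, n = 3; exact permutation p = 0.8). Relative to Amelx, the log2 ratio with 1 RPKM added to both genes was higher in DKO by 1.58 for Amtn and 1.71 for Csn3, and its difference was -0.98 for Odam and -0.63 for Klk4, all without overlap (exact permutation p = 0.1 each). For Odaph that ratio overlapped, and the ratio without the added 1 RPKM did not. Odam and Csn3 are direct neighbours on chromosome 5, with 31.4 kb between them.

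**Figure D4:**
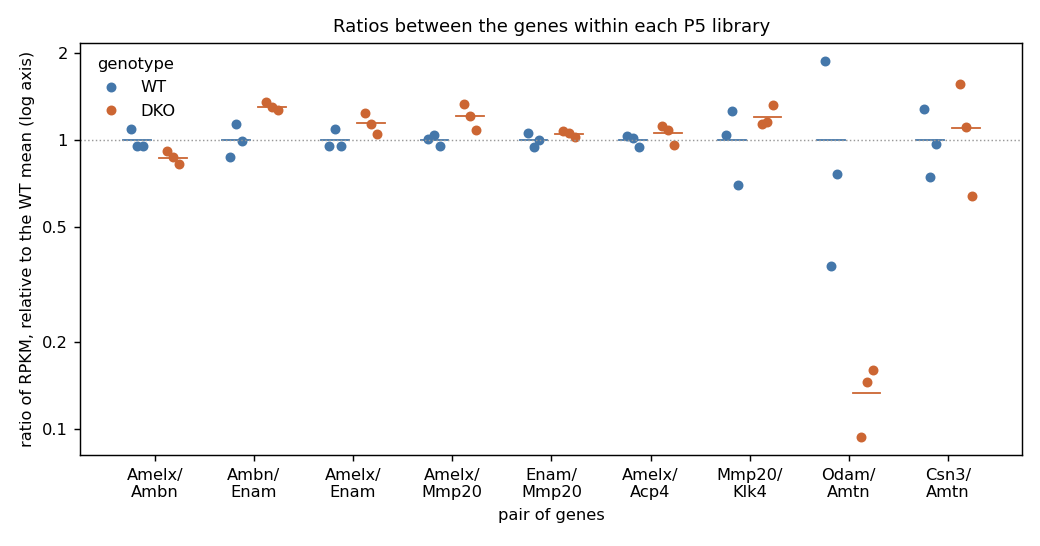
Ratio of RPKM between pairs of the genes in each P5 library, divided by the WT mean of that ratio, on a log axis, with WT in blue and DKO in orange. Odam over Amtn, which before that division was 4.12 to 21.0 in WT and 1.06 to 1.81 in DKO, lies lowest in DKO by its mean. Amelx over Enam, Enam over Mmp20, Amelx over Acp4, Mmp20 over Klk4 and Csn3 over Amtn overlap between genotypes.

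Amelx is spliced into several mRNAs, and the P5 table lists 3, which the annotation matches to Amelx-201 (802 nt), Amelx-202 (799 nt) and Amelx-204 (727 nt). Amelx-204 lacks the first 72 bases of the large exon, and Amelx-201 ends in extra exons in place of the usual last one. The stretches that tell them apart, all coding, are shown in capitals with their spliced flanks in lower case.
Start of the large exon, in Amelx-202 and absent from Amelx-204, chrX:169182144-169182215, minus strand: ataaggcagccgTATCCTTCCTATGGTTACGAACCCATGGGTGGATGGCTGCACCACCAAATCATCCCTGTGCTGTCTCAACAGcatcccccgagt
Second-last exon of Amelx-201, chrX:169178015-169178059, minus strand: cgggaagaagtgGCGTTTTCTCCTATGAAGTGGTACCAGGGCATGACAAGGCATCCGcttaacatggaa

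Amelx-201 held 20.4, 21.7 and 19.7% of the Amelx RPKM in the WT libraries and 24.3, 24.4 and 24.5% in the DKO libraries, without overlap. Amelx-202 held 45.9, 40.3 and 46.4% in WT and 38.5, 38.8 and 39.3% in DKO, also without overlap. Amelx-204 held 33.7, 38.0 and 33.9% in WT and 37.2, 36.8 and 36.2% in DKO, with overlap. The exact permutation p was 0.1 for each of the first 2 (0.15 adjusted over the 3 transcripts), and 0.4 for Amelx-204. All 3 transcripts had higher RPKM in every DKO library than in any WT library. The split between transcripts that share most of their sequence is an estimate of the authors' software, and its error was not measured.

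**Figure D5:**
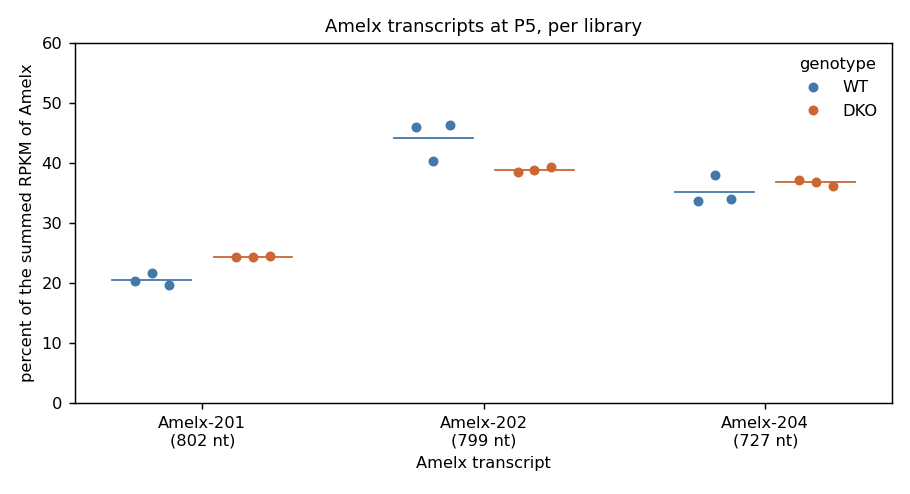
Percent of the summed RPKM of Amelx in each of its 3 listed transcripts, per P5 library, with WT in blue, DKO in orange and lines for means. Amelx-201 is higher and Amelx-202 lower in all DKO libraries, and Amelx-204 overlaps.

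At E17, before enamel secretion, 3 of the 10 genes passed the filter of 1 RPKM in 3 libraries, and 7 did not. Odam rose, where 6.61% of 13728 genes tested rose and 3.07% fell. It measured 2.15, 0.982 and 1.73 RPKM in WT and 7.64, 9.65 and 8.51 in DKO, 5.30-fold by the means and without overlap. DKO was higher without overlap at 60.9% of all genes as deposited and WT at 3.83%. The log2 difference was 1.89 ± 0.16 (SE; limma adjusted p = 0.000187), and 1.67 (adjusted p = 0.00107) scaled. Of 9 dental epithelium markers 6 rose at E17 (sums of 2195 to 2525 RPKM in WT and 2818 to 3190 in DKO), while 4 of 6 odontoblast and bone markers tested fell (2295 to 2491 and 927 to 1279) and 5 of 7 muscle markers fell (367 to 831 and 314 to 394). The sum of 10 mesenchyme markers was 2546 to 2704 in WT and 1897 to 2056 in DKO, and 3 fell and 1 rose. Red cell markers, of which 5 of 7 rose, summed to 5771 to 7229 in WT and 10412 to 21298 in DKO. The part of these cells in the change of Odam was not tested.

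Amelx was not called at E17. It measured 4.82, 5.70 and 4.66 RPKM in WT and 4.08, 4.71 and 6.76 in DKO, a log2 difference of 0.01 ± 0.15 (SE; 95% interval -0.32 to 0.34; limma adjusted p = 0.959) and -0.23 (interval -0.55 to 0.08) scaled. Ambn measured 4.62, 6.95 and 5.40 RPKM in WT and 3.55, 4.78 and 4.26 in DKO. By the rule it fell, by 0.35 ± 0.13 on the log2 scale (SE; limma adjusted p = 0.0487), -0.59 scaled (adjusted p = 0.0233), but the groups overlapped. As deposited the call was lost without WT replicate 2 (limma adjusted p = 0.147), WT replicate 3 (0.0878), DKO replicate 1 (0.130) or DKO replicate 3 (0.0921). After scaling it was lost without WT replicate 3, DKO replicate 1 or DKO replicate 3. Odam over Amelx was 0.330 ± 0.142 in WT and 1.73 ± 0.415 in DKO (SD, n = 3), without overlap (exact permutation p = 0.1, 0.2 adjusted over 2 ratios).

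Of the 7 genes not tested at E17, 6 rested on few reads, recovered from the value steps. Enam, whose long transcript gives low RPKM, had 28 to 38 reads a library in WT and 43 to 63 in DKO. It measured 0.181 to 0.238 RPKM in WT and 0.261 to 0.276 in DKO, without overlap, as 60.9% of the genes tested did in that direction as deposited. As a share of the library total, Enam overlapped between genotypes. It held 3.86e-05 to 5.45e-05% in WT and 5.27e-05 to 5.33e-05% in DKO (exact permutation p = 0.4). Csn3 had 1 to 4 in WT and 5 to 6 in DKO, 6 and 17 over the 3 libraries of each genotype. Acp4 had 11 and 5 reads over 3 libraries, Klk4 10 and 7, Mmp20 6 and 10, and Odaph 5 and 4. Amtn was listed at 0 in all 3 WT libraries and had 2 reads in the 3 DKO libraries together. These counts do not allow a difference to be read for Csn3, Acp4, Klk4, Mmp20, Odaph or Amtn at this depth.

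The genotype effect differed between the stages for all 3 genes tested at both, in opposite directions. The log2 effect at P5 minus that at E17 was 1.41 ± 0.16 (SE) for Ambn, with an adjusted p of 1.48e-06 from the limma fits, and 0.85 ± 0.18 for Amelx, with an adjusted p of 0.00041. For Odam it was -2.01 ± 0.18 (adjusted p = 4.89e-07 from the limma fits). The Odam transcripts listed differ between the stages. At P5 the only one is 872 nt long. At E17 Odam-202 (1370 nt) held 91.2 ± 4.25% of Odam RPKM in WT and 91.8 ± 7.86% in DKO (SD, n = 3). Odam-201, of 872 nt, measured 0.0777 to 0.233 RPKM in WT and 0.0549 to 1.25 in DKO at E17, with overlap. The part of the transcript sets in the Odam difference was not tested. Over 11049 genes tested at both stages, 30.1% differed in both scalings, with P5 above E17 at 2.61% and below at 27.5%. From E17 to P5, mean Amelx went from 5.06 to 100892 RPKM in WT and from 5.18 to 183477 in DKO, and mean Odam from 1.62 to 163 and from 8.60 to 150.4. The tables of the 2 stages use different transcript sets, so these levels are set side by side without a test.

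Other genes of enamel formation, from lists chosen with earlier results of these data known, gave a mixed picture at P5. Of 13 genes for secretion, ion transport, attachment and kinase activity whose loss impairs enamel, 10 were tested. Of these, 7 rose and 1 fell, beside 7.35% and 30.8% of all genes. Their median log2 fold change was 0.34 as deposited and 0.56 scaled, beside -0.25 and -0.06 over all genes. Fam20a, a pseudokinase that activates the kinase phosphorylating enamel proteins, rose from 68.4 to 105.7 RPKM (limma adjusted p = 3.87e-05). Lamb3, a laminin chain of the ameloblast basement membrane, rose from 190.4 to 288 (limma adjusted p = 4.75e-05). Relt, a receptor of secretory ameloblasts, rose from 48.6 to 72.8 (limma adjusted p = 2.1e-05). Cnnm4, a metal transporter linked to enamel maturation, fell from 11.1 to 5.95 (limma adjusted p = 3.69e-05). At E17 10 of the 13 were tested and 0 were called by the limma rule, where 6.61% of all genes rose and 3.07% fell. At an unadjusted p under 0.05, 4 were higher as deposited and 3 lower after scaling.

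Of 18 transcription factors of the enamel epithelium, 17 were tested at P5, of which 2 rose and 3 fell, beside 7.35% and 30.8% of all genes. Nfya, a subunit of NF-Y, which binds CCAAT boxes, fell from 7.92 to 3.02 RPKM (limma adjusted p = 6.81e-06). Foxo1, needed for enamel maturation, fell from 33.9 to 17.6 (limma adjusted p = 4.27e-06), Bcl11b fell from 4.61 to 2.99 and Runx1 rose to 15.5 from 11.97. At E17 8 of the 17 tested rose and 0 fell by the limma rule, beside 6.61% and 3.07% of all genes at E17. At an unadjusted p under 0.05, 0 were lower as deposited and 1 after scaling. Among the 8 were Msx2 from 6.38 to 23.1, Sp6 from 18.4 to 65.7, Dlx2 from 15.2 to 37.2 and Satb1 from 3.63 to 6.73 RPKM. Each of these had a limma adjusted p under 0.05 in both scalings.

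Of 20 other matrix metalloproteinases, kallikreins, acid phosphatases and processing proteases, 12 were tested, 0 rose and 4 fell by the limma rule, with 0 higher as deposited and 3 higher after scaling at an unadjusted p under 0.05. That share of falls is near the 30.8% of all genes. The 4 were Mmp2 (18.3 to 9.59 RPKM), Acp6 (16.4 to 10.7), Acp2 (6.93 to 5.18) and Mmp13 (9.46 to 5.19). At E17 Acp5 rose from 83.2 to 138 RPKM (limma adjusted p = 0.00131). Klk5, Klk7 and Klk14, proteases of cornifying epithelium, were also called at E17, but reached 1 RPKM in DKO libraries only, so a difference in that direction was built into their being tested. Of 7 genes listed for acidic, bone and dentin matrix proteins and their relatives, 5 of 6 tested fell at P5, beside 30.8% of all genes. The 5 were Dmp1 from 29.2 to 4.05, Dspp from 408 to 180.05, Sparc from 770.3 to 498, Ibsp from 96.8 to 50.3 and Spp1 from 49.3 to 19.6 RPKM (limma adjusted p = 0.00536 for Spp1). The promoter of Spp1 holds the same letters as those of Amelx, Ambn, Enam, Amtn and Odam.

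By pattern over the 12 libraries, measured as the Euclidean distance of log2(RPKM + 1) after subtracting each gene's WT mean at E17, over 7315 genes outside the 10 that reached 10 RPKM in a library, the genes most like Odam were Tesc (distance 1.78), Aplp1, Crtac1, Ctnna2 and Cntnap2. Tesc measured 1.13 RPKM in WT and 3.24 in DKO at E17, and 105.3 and 115.8 at P5. The rise from E17 to P5 enters this distance along with genotype, between stages whose transcript sets differ. A near gene therefore need not share the genotype difference: Aplp1 measured 438 RPKM in WT and 732 in DKO at P5, where Odam was not called. Those most like Csn3 were Aplp1 (3.15), Papln, Ctnna2 and Gal3st4, and 1 predicted gene, while Amtn lay nearer, at 2.91. Ambn (6.60) and Enam (9.15) lay nearest to Amelx, and outside the 10 its nearest were Clu at a distance of 14.4, Calb1, 2 predicted genes and Dspp.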

How the data were processed

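RNA was measured by sequencing of rRNA-depleted total RNA, per the labels' protocols. The submitters' processing notes name Partek and mouse build mm10. Neither an aligner nor counting settings are named there. The deposited tables hold RPKM per transcript, a unit the authors do not state and that was read from the values: low values are whole multiples of 1 read per length, to within 0.1 read, for 87.4 to 88.6% of them at E17 and 74.6 to 77.7% at P5. No count test was run. The number of alignments per library is the authors' own figure, per the file headers. Genes of the P0 table were not analysed here.

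From these values, transcripts were summed per symbol, genes reaching 1 RPKM in 3 or more libraries of a stage entered the fit, and log2(RPKM + 1) was compared by limma 3.58.1 (R 4.3.3) with a variance trend, two-sided, with Benjamini-Hochberg adjustment over all genes tested, for each stage alone. A fold change on this scale understates changes of low genes. Differences between stages used both fits' standard errors with Satterthwaite degrees of freedom. Single values (shares, ratios) were compared by exact permutation tests, two-sided, which 3 against 3 libraries cannot take below 0.1. The fit without scaling was also run on simulated data that held no shift of most genes between genotypes. That run did not test the rule of calling a gene only under both scalings. All 10 genes are named in every library. Of each other list the counts and up to 4 genes with the smallest p are named, and for Amelx, Odam and Csn3 the 5 nearest genes. Fthl17-ps1 and the other genes of shared promoter letters, and Spp1, were named after their values were seen. The genes and lists were chosen with earlier results of these data known. Positions are from GENCODE M21. The labels do not say whether same-numbered libraries are pairs, so the numbers were used only as an alternative. For same-numbered libraries, deviations from group means correlated at -0.02, 0.22 and -0.02 at E17 and -0.22, -0.07 and 0.04 at P5. With 3 libraries per group these values cannot exclude pairing. Alternatives were other scalings, no filter, pseudocount 0.1, no variance trend, a replicate block, each library left out, and other reference genes and totals. Those added after seeing the data were scaling without the 10 genes, the combinations with upper-quartile scaling, and 3 further scalings of the stage difference.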

Additional observations from a re-analysis of the deposited data

Results flagged for a closer look

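The effect of genotype differed between stages for each of the 3 genes that could be tested at both, by a test of the difference itself. The log2 fold change of Ambn at P5 minus that at E17 was 1.41, that of Amelx 0.85 and that of Odam -2.01. Over the 5 alternatives each, these ranged from 1.39 to 1.94 for Ambn, from 0.83 to 1.38 for Amelx and from -2.51 to -1.50 for Odam, all with the same sign and past the limma threshold. The transcripts listed for Odam differ between the stages, and their part in its difference was not tested. As deposited, the sums of dental epithelium, odontoblast and bone, mesenchyme and red cell markers did not overlap between genotypes at either stage. Over all genes as deposited, DKO was higher without overlap at 60.9% at E17 and 8.66% at P5. WT was higher without overlap at 3.83% and 61.8%. The sums were not scaled, and the part of these cells in the stage differences was not tested. Groups of 3 libraries were too small for a test of single outlying libraries.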

How the results depend on the processing

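Of 161 fits of 7 genes that rose at P5, Odaph left out (23 alternatives each), 160 kept direction and call, the exception being Amelx with no filter (0.86, limma adjusted p = 0.478). Odam at E17 kept both in 23 of 23. Genes called at E17 went from 8188 as deposited to 2011 with upper-quartile, 2020 with median-of-ratios, 3110 with same-total (with or without the 10 genes), 1990 with upper-quartile and pseudocount 0.1, and, leaving out 1 library, 5448 (without DKO replicate 3) to 9323, or 718 to 2364 when scaled, lowest without DKO replicate 3 (718) and WT replicate 3 (823). At P5 the count was 7486 as deposited, 5726 with upper-quartile and 5659 with median-of-ratios scaling. With same-total scaling it was 9357, or 5697 without the 10 genes. Leaving out 1 library it was 6526 to 7164 as deposited and 4634 to 5475 when scaled to the upper quartile. The share of calls that were higher went from 94.5 to 45.2% at E17 and from 11.2 to 38.6% at P5 with upper-quartile scaling.

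Ambn at E17 (-0.35) lost its call in 9 of 23 alternatives, among them no filter (-0.35, limma adjusted p = 0.203) and no variance trend (-0.35, 0.0522). Leaving out 1 library, it ranged from -0.46 to -0.21 as deposited and from -0.72 to -0.46 when scaled to the upper quartile. Amelx at E17 turned from 0.01 to -0.23 with upper-quartile, -0.23 with median-of-ratios and -0.15 with same-total (with or without the 10 genes). It was -0.28 with upper-quartile and pseudocount 0.1. Leaving out 1 library, it ranged from -0.17 to 0.14 as deposited and from -0.39 to -0.14 when scaled. Klk4 at P5 passed the threshold at 0.42 with upper-quartile, 0.47 with median-of-ratios and 0.40 with same-total without the 10 genes. It also passed at 0.50 with upper-quartile and pseudocount 0.1. Leaving out 1 library, it ranged from 0.11 to 0.40 as deposited and from 0.30 to 0.60 when scaled. Odam at P5 turned from -0.12 to 0.11 with upper-quartile (0.11 also with pseudocount 0.1), 0.17 with median-of-ratios and 0.0904 with same-total without the 10 genes. It passed the threshold downward with same-total (-0.30, limma adjusted p = 0.00834). Leaving out 1 library, Odam at P5 ranged from -0.18 to -0.037 as deposited and from 0.056 to 0.17 when scaled. Its share of the total turned from -0.00696 to 0.00331 percentage points when the 10 genes were left out of the total, and that of Klk4 ranged from -7.2e-05 to 0.000218 leaving out 1 library. The cause of these changes was not tested.

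The labels do not say whether the replicate numbers mark pairs. With the replicate block 7671 genes were called at E17 and 7103 at P5 as deposited, and it changed no call of the 10 genes. With the block and upper-quartile scaling 1657 were called at E17, Amelx at E17 was at -0.23 and Odam at P5 at 0.11. With the highest transcript in place of the sum, mean Amelx at P5 was 44457 RPKM in WT and 71220 in DKO. Depth limits Acp4, Amtn, Csn3, Klk4, Mmp20 and Odaph at E17, while Enam was kept from the test by its RPKM.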

Other observations

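Beside the markers already given, 5 of 5 red cell markers tested at P5 fell (summed RPKM 1349 to 1480 in WT and 517 to 1186 in DKO), where 5 of 7 had risen at E17. At P5 2 of 5 immune markers, 1 of 5 endothelial and 1 of 4 cornifying markers tested fell, where 30.8% of all genes fell. At E17 3 of 6 cornifying markers rose, where 6.61% of all genes rose, with sums of 1632 to 2418 RPKM in WT and 1835 to 3683 in DKO. Of 6 immune and 5 endothelial markers tested at E17, 0 were called by the limma rule, with 6 immune markers higher as deposited and 0 after scaling, and 0 endothelial markers lower as deposited and 3 after scaling, at an unadjusted p under 0.05.

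Amelx-203, a transcript with an exon of 42 bases that the other 4 Amelx transcripts of the E17 table lack, held up to 2.47% of Amelx RPKM in WT and 4.67 to 10.7% in DKO at E17. Those values did not overlap (exact permutation p = 0.1, 0.5 adjusted over 5 transcripts), and Amelx as a whole had 88 to 208 reads a library there. Amelx-203 was not analysed at P5.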
